A study of Mus musculus with 33 samples.

Results

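Type I interferon-stimulated genes are the antiviral genes that cells switch on when interferon alpha or beta binds its receptor. The 44 described here were taken by symbol, from general knowledge of the interferon response, and each matched 1 row of the 37973 genes in the deposited expression table. Their RNA was followed in mouse embryonic fibroblasts, isolated from embryos 14 to 15 days post coitum, while doxycycline was driving them towards pluripotency. All sorted cells carried Col1a1-OSKM+/-, a doxycycline-controlled cassette of Pou5f1, Sox2, Klf4 and Myc, with Rosa26-rtTA+/- as its activator and Oct4-GFP+/- as a reporter of the reactivated Pou5f1 gene. The alleles came from crosses of mixed B6 and 129S4 stocks. The labels mention lentiviral transduction before reprogramming. One arm overexpressed Dppa2 and Dppa4, a pair of chromatin factors that pluripotent cells and germ cells share (Dppa2/4 below), and the other is labelled control overexpression, with no construct named. Cells were sorted for Thy1, a fibroblast antigen, SSEA1, an antigen of reprogramming cells, and GFP. The data held 13 control and 17 Dppa2/4 libraries from days 2, 4, 8, 11 and 14, and a further day 2 library of each arm labelled rtTA-MEF, whose genotype lists Rosa26-rtTA+/- and Oct4-GFP+/- without the OSKM cassette. Each combination of arm, day and gate was 1 library, so there were no replicates, and 13 combinations of day and gate had both arms (strata below). The p-values therefore rest on the spread of the Dppa2/4 difference between strata. Any other difference that 1 arm carried through all its strata lies outside that spread and cannot be told apart from Dppa2/4.

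Interferon alpha and beta bind the Ifnar1 and Ifnar2 receptor chains, and the kinases Jak1 and Tyk2 then activate transcription factors, Stat2 among them. With Irf9 these form a complex that binds the interferon-stimulated response element, whose core is the letters GAAA repeated with a gap of 2 bases, in the promoters of its targets. Irf7, itself a target, raises interferon production, and fibroblasts can start the loop themselves when their sensors meet viral or misplaced nucleic acids. Pluripotent cells are known for a weak response to interferon and for a constant low level of some of these genes.

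Because the promoters are where this signal is read, the core repeat was searched in RefSeq promoter windows of GRCm38.p6, from 250 bases before to 50 bases after each start, on both strands (GAAA, any 2 bases and GAAA again, which reads as TTTC, any 2 bases and TTTC from the other strand). Of 32851 windows, 3.44% held it, as did 3.99% of 27025 genes. Of the 44 members 35 had a window, and 16 of these (45.7%) held the repeat. The 8 stretches below were taken from the window upstream of the start, 1 from each role that had a member with a match among those that changed with Dppa2/4, chosen by the largest difference. They are written 5′ to 3′ along the gene's own strand, with the matches in capitals.
Isg15, chr4:156200835-156200936, minus strand: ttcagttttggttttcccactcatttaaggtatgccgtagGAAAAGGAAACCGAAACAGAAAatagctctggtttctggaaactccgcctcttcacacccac
Irgm1, chr11:48871421-48871490, minus strand: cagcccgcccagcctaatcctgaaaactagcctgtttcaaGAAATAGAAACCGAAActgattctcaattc
Ifit1, chr19:34640745-34640853, plus strand: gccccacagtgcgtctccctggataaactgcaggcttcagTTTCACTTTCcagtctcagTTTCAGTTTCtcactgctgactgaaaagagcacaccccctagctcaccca
Oas1a, chr5:120907526-120907585, minus strand: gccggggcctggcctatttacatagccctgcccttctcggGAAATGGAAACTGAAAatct
Stat2, chr10:128270248-128270325, plus strand: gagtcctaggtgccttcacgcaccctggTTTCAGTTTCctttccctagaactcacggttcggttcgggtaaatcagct
Rsad2, chr12:26456523-26456612, minus strand: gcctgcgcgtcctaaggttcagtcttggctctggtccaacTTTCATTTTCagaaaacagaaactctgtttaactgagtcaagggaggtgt
Ifi203, chr1:173942493-173942567, minus strand: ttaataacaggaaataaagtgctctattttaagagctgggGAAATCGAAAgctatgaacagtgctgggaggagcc
Bst2, chr8:71537547-71537642, minus strand: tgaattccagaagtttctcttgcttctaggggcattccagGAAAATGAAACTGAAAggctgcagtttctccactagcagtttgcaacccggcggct

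In Isg15 3 matches overlapped in 1 run that began 78 bases before the start. Irgm1, Oas1a and Bst2 held 2 overlapping matches, and Ifit1 held 2 that stood apart. The first match lay 20 bases before the start in Oas1a and 222 bases before it in Stat2. The 16 members with the repeat had a median Dppa2/4 difference of 0.74 on the log2 scale used below and 14 of them rose, while the 19 members with a window but no match had a median of 0.74 and 15 rose. The medians were thus alike, and no test of the repeat against the size of the difference was run. Both groups hold members that met the filter on low values, given below, through the Dppa2/4 arm alone. Ifit1, Oas1a, Rsad2 and Ifi203 above are of this kind. Nothing is read from how many rose, where 15.6% of all genes tested rose. Irf7, among the members with the largest differences, had no match, and Rtp4 and Usp18 had no window. A match is a string of letters and was not tested as a binding site.

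Depth worked back from the lowest values was 21.4 to 42.7 M fragments in the 30 sorted libraries, and 16.2 and 14.1 M fragments in the control and Dppa2/4 libraries labelled rtTA-MEF. In the library labelled Dppa2/4 day 4 Thy1+SSEA1-, Dppa2 was at 0.354 FPKM and Dppa4 at 0.409 FPKM, while in the other Thy1+SSEA1- libraries of that arm Dppa2 was at 599, 175 and 171 FPKM on days 2, 8 and 14. Dppa2 was at most 0.527 FPKM in the 4 control libraries of that gate, so this library goes against its label, and the counts that rest on it are also given without it. FPKM is the fragment count scaled to transcript length and library size. In GFP+ cells of the control Dppa2 was on without its overexpression, at 66.1 and 45.5 FPKM. The Dppa2/4 GFP+ libraries had Dppa2 at 49.3, 61.6 and 54.0 FPKM, where RNA of the transgene and of the cell's own gene cannot be told apart. The day 11 GFP+ control library carries a description of another gate, had Nanog at 323 FPKM, within 260 to 360 FPKM of the Dppa2/4 GFP+ libraries, and was used as titled.

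Interferon-stimulated genes were higher in the Dppa2/4 arm. Each member was compared on log2(FPKM + 1), a scale that understates changes of low genes, with the mean difference over 13 strata tested by limma and adjusted over 16835 genes (passed means an adjusted p below 0.05). Of 43 members tested, 36 rose and 1 fell, where 15.6% of all genes rose and 7.75% fell. The median difference was 0.75 over the members tested and 0.03 over all genes tested. Mx1, an antiviral GTPase, was the member not tested, since it did not reach 1 FPKM in any library and its highest value was 0.836 FPKM. The 36 that rose differed by 0.31 to 2.45, 12 of them by at least 1, and 12 of the 44 members were higher in all 13 strata. The shares of all genes that did so were not worked out, so these counts of 12 only describe the members. Without the pairing of libraries by stratum 15 members rose (4.27% of all genes rose) and the same mean differences stood against a wider spread. Without day 8, 24 members rose (9.1% of genes). Without the day 4 Thy1+SSEA1- stratum, whose Dppa2/4 library goes against its label, 36 rose and 1 fell (16.2% and 8.9% of genes), with a median of 0.79, and Isg15 differed by 2.70, Irf7 by 2.49, Rtp4 by 2.38 and Oasl2 by 2.31.

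The filter on low values asks for 1 FPKM in 2 libraries, and 11 of the 43 members met it through the Dppa2/4 arm alone, with under 2 of 13 control libraries at that level. These were Cmpk2, Gbp3, Ifi203, Ifi205, Ifi44, Ifit1, Mx2, Oas1a, Oasl1, Rsad2 and Usp18. They could enter only by being high in that arm, so nothing is read from all 11 having risen. The other 32 members had at least 2 control libraries at that level, and 25 of them rose and 1 fell, where 13.9% of 15476 such genes rose. Of all genes with under 2 such control libraries 35% rose. Usp18, Cmpk2, Mx2, Gbp3 and Ifi203, which are of the 11, were among the members higher in all 13 strata. The counts for the repeat and for other fits above, and those by role, gate and setting below, include members of both kinds. Nothing is read there from the rise of these 11. Among the members that rose without the pairing by stratum, Irf7, Irf9, Isg15, Oasl2, Rtp4, Xaf1 and Igtp were outside these 11.

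**Figure D1:**
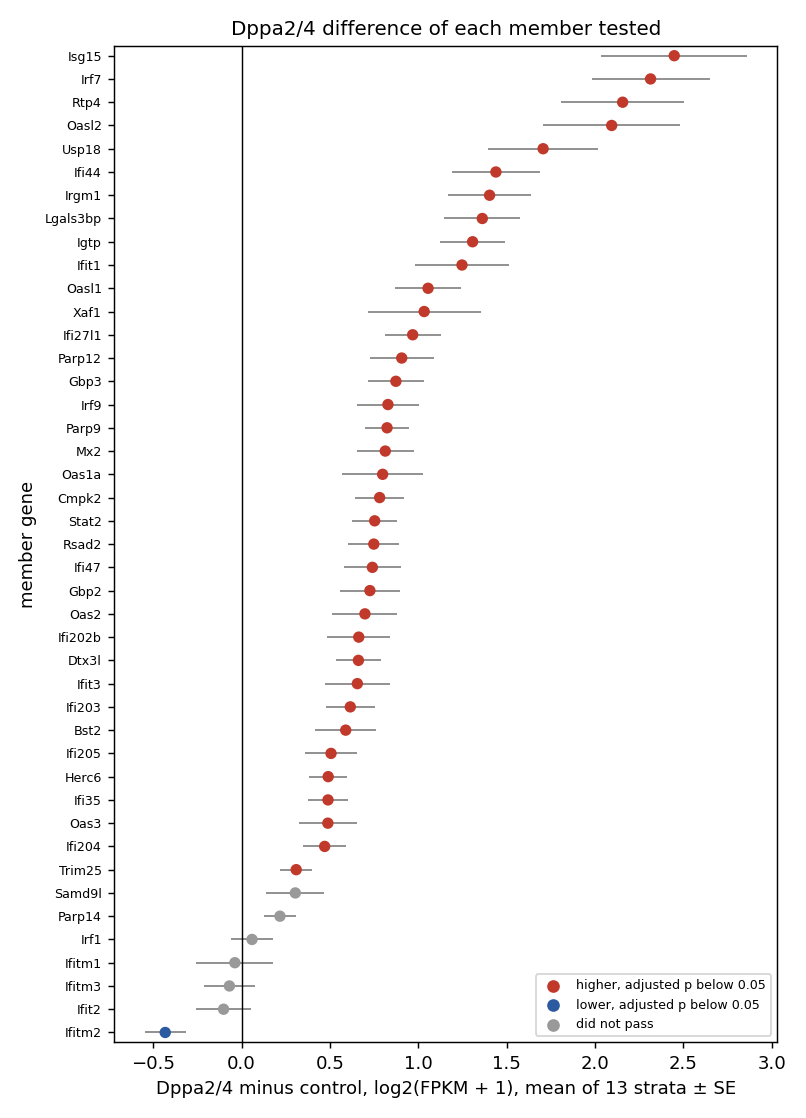
Dppa2/4 minus control on log2(FPKM + 1), mean of 13 strata with its standard error, for the 43 members tested, sorted by size; red and blue points passed the test and grey points did not. Isg15, Irf7, Rtp4 and Oasl2 stand above 2, and Ifitm2 is the member on the lower side that passed.

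Among the regulators 3 of 4 rose. Irf7, the interferon regulatory factor that amplifies interferon production (chr7:141262706-141266481, minus strand, GRCm38), differed by 2.31 (SE 0.33, adjusted p = 0.000827) and was higher in 13 of 13 strata. In Thy1+SSEA1- cells it was at 1.48, 1.87, 2.10 and 5.67 FPKM in the control on days 2, 4, 8 and 14, and at 32.8, 2.27, 36.5 and 30.9 FPKM in the Dppa2/4 arm. The 3 Dppa2/4 libraries that carried the transgenes stood above all controls of the gate, and the day 4 library lay among them. In Thy1-SSEA1- cells the control values were 3.52, 1.46, 1.21 and 1.09 FPKM on days 2, 4, 8 and 11, against 28.5, 14.1, 28.6 and 17.9 FPKM, with 18.1 FPKM on day 14 in the Dppa2/4 arm alone. In Thy1-SSEA1+ cells they were 0.321, 0.534 and 2.62 FPKM on days 8, 11 and 14, against 10.9, 8.57 and 9.66 FPKM, and in both gates the arms did not overlap. The 2 Thy1+SSEA1+ libraries of the Dppa2/4 arm, which have no control, had 30.9 and 12.8 FPKM on days 2 and 4. In GFP+ cells Irf7 was at 0.293 and 0.647 FPKM on days 11 and 14 in the control, and at 0.799 and 0.889 FPKM in the Dppa2/4 arm, whose day 8 library, without a control, had 1.44 FPKM. Irf9, which gives the complex with Stat2 its DNA contact, rose by 0.83 (SE 0.18, adjusted p = 0.00515), and Stat2, its signalling partner, rose by 0.75 (SE 0.13, adjusted p = 0.00145). Irf1, an early target of interferon gamma and the regulator with the highest level, differed by 0.06 (SE 0.12, adjusted p = 0.757). Its values over the strata ran from 9.26 to 24.4 FPKM in the control and from 11.3 to 30.1 FPKM in the Dppa2/4 arm, and it was higher in 6 of 13.

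All 4 genes of the ISG15 pathway rose, though Usp18 entered the test through the Dppa2/4 arm. Isg15, the ubiquitin-like protein that is attached to other proteins during the response (chr4:156199424-156200818, minus strand), had the largest difference of all members, 2.45 (SE 0.41, adjusted p = 0.00147), and was higher in 12 of 13 strata. In Thy1+SSEA1- cells it was at 3.44, 3.49, 3.70 and 5.46 FPKM in the control on days 2, 4, 8 and 14, and at 58.0, 2.10, 70.3 and 36.5 FPKM in the Dppa2/4 arm. The day 4 library labelled Dppa2/4 was the stratum below its control. In Thy1-SSEA1- cells Isg15 was at 8.37, 2.61, 1.95 and 1.26 FPKM in the control on days 2, 4, 8 and 11, and at 113, 38.5, 51.1 and 25.7 FPKM in the Dppa2/4 arm, with 18.7 FPKM on day 14. In Thy1-SSEA1+ cells the control values of 0.215, 2.45 and 2.03 FPKM on days 8, 11 and 14 stood against 18.2, 6.35 and 4.55 FPKM. These arms did not overlap. GFP+ cells had 0.315 and 0.197 FPKM on days 11 and 14 in the control and 1.12 and 1.04 FPKM in the Dppa2/4 arm, again without overlap but near the floor of detection. Usp18, the protease that removes Isg15 and damps the receptor, rose by 1.71 (SE 0.31, adjusted p = 0.00209) and was higher in 13 of 13 strata. Herc6, the mouse ligase for Isg15, rose by 0.49, and Trim25, a ubiquitin ligase and the pathway's most abundant RNA, by 0.31 (SE 0.09, adjusted p = 0.0237). Trim25 had 25.0 ± 7.02 FPKM in the control and 30.8 ± 5.88 FPKM in the Dppa2/4 arm (SD over strata, n = 13 each), and the arms overlapped.

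The 5 OAS genes rose, though Oas1a and Oasl1 entered the test through the Dppa2/4 arm. The products of the family make 2-5A from double-stranded RNA, or, for the Oasl proteins, act without that activity or help signalling. Oasl2 (chr5:114896936-114912234, plus strand) had the largest difference and the highest level of the family, with 2.09 (SE 0.39, adjusted p = 0.00226). It was at 0.965, 2.06, 1.24 and 1.67 FPKM in control Thy1+SSEA1- cells on days 2, 4, 8 and 14 and at 13.7, 1.24, 36.3 and 21.3 FPKM in the Dppa2/4 arm. Thy1-SSEA1- cells had 1.25, 1.41, 0.697 and 0.751 FPKM on days 2, 4, 8 and 11 in the control and 14.1, 8.66, 26.6 and 11.7 FPKM in the Dppa2/4 arm, and the arms did not overlap. Oasl2 in Thy1-SSEA1+ cells was at 0.131, 1.21 and 1.65 FPKM in the control on days 8, 11 and 14, and at 9.46, 4.27 and 6.91 FPKM in the Dppa2/4 arm. In GFP+ cells the arms overlapped, with 0.910 and 0.982 FPKM on days 11 and 14 in the control and 1.20 and 0.688 FPKM in the Dppa2/4 arm. The other 4, Oas1a, Oas2, Oas3 and Oasl1, rose by 0.49 to 1.06 from control means of 0.193 to 0.625 FPKM, so they remained low in both arms. Oas1a belongs to a cluster of near-identical copies, and how the counting split their reads is not given in the sources used here.

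In the IFIT family, whose proteins bind viral RNA and block its translation, Ifit1 and Ifit3 rose and Ifit2 did not pass. Of these, Ifit1 entered the test through the Dppa2/4 arm. Ifit1 (chr19:34640871-34650009, plus strand) differed by 1.25 (SE 0.27, adjusted p = 0.00532). It was at 0.230, 0.831, 0.819 and 0.481 FPKM in control Thy1+SSEA1- cells on days 2, 4, 8 and 14 and at 1.65, 0.533, 10.5 and 2.58 FPKM in the Dppa2/4 arm. In Thy1-SSEA1- cells it was at 1.57, 0.770, 0.438 and 0.935 FPKM in the control on days 2, 4, 8 and 11 and at 20.9, 2.70, 7.74 and 7.01 FPKM in the Dppa2/4 arm, where 20.9 FPKM was its highest level in any library. In Thy1-SSEA1+ cells the control had 0 FPKM listed on day 8, 0.677 FPKM on day 11 and 0.185 FPKM on day 14, and the Dppa2/4 arm had 1.00, 1.05 and 0.709 FPKM. In GFP+ cells Ifit1 stayed at or below 0.513 FPKM in all libraries. Ifit3 rose by 0.66 (SE 0.18, adjusted p = 0.0203), and Ifit2 differed by -0.10 (SE 0.16, adjusted p = 0.673), with 2.10 FPKM in the control and 2.07 FPKM in the Dppa2/4 arm (means, n = 13 each).

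The membrane restriction factors, which hold viruses at the cell surface or in endosomes, went apart from the other roles: Bst2 rose, Ifitm2 fell, and Ifitm1 and Ifitm3 did not pass. They were the most abundant members. Ifitm3 had 961 ± 504 FPKM in the control and 952 ± 490 FPKM in the Dppa2/4 arm (SD over strata, n = 13 each) and differed by -0.07 (SE 0.14, adjusted p = 0.765). Among the controls Ifitm3 was highest in Thy1+SSEA1- cells, at 1060 to 2180 FPKM, and lowest in GFP+ cells, at 355 and 322 FPKM on days 11 and 14. Ifitm2 had 853 ± 286 FPKM in the control and 638 ± 216 FPKM in the Dppa2/4 arm, a difference of -0.43 (SE 0.12, adjusted p = 0.0172), and was higher in 2 of 13 strata. That call was lost without day 11 (-0.37) and without day 14 (-0.30). Bst2, tetherin, which ties budding virus to the membrane, rose by 0.59 (SE 0.17, adjusted p = 0.0246) and was higher in 10 of 13 strata. Bst2 in Thy1+SSEA1- cells was at 54.8, 72.5, 102 and 168 FPKM in the control on days 2, 4, 8 and 14 and at 205, 121, 202 and 213 FPKM in the Dppa2/4 arm. Among Thy1-SSEA1- libraries 35.3, 78.0, 108 and 94.7 FPKM on days 2, 4, 8 and 11 stood against 107, 111, 181 and 122 FPKM. In Thy1-SSEA1+ cells the arms overlapped, with 81.2, 139 and 185 FPKM in the control on days 8, 11 and 14 and 171, 136 and 153 FPKM in the Dppa2/4 arm. The call for Bst2 was lost when day 2, day 4 or day 8 was left out, at differences of 0.38 to 0.58.

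Of the restriction factors that act on nucleotides or translation, Rsad2 and Cmpk2 rose and Samd9l did not pass. Rsad2 and Cmpk2 entered the test through the Dppa2/4 arm, so nothing is read from their rise. Rsad2, viperin, makes a chain-terminating nucleotide and rose by 0.75 (SE 0.14, adjusted p = 0.00283). Cmpk2, a mitochondrial nucleotide kinase whose gene neighbours Rsad2, rose by 0.78 (SE 0.14, adjusted p = 0.00202) and was higher in 13 of 13 strata. Cmpk2 stayed at or below 0.303 FPKM in every control stratum and reached 3.68 FPKM in the Dppa2/4 day 2 Thy1+SSEA1- library. Samd9l, an inhibitor of translation, differed by 0.30 (SE 0.17, adjusted p = 0.197). Samd9l was at 8.58 and 4.86 FPKM in the Dppa2/4 Thy1-SSEA1- libraries of days 2 and 11 (control 3.05 and 1.54 FPKM), and at 0.496 FPKM in Dppa2/4 Thy1+SSEA1- cells on day 2, against 2.33 FPKM.

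All 6 GTPases tested rose, though Mx2 and Gbp3 entered the test through the Dppa2/4 arm. Igtp, Irgm1 and Ifi47 are immunity-related GTPases and Gbp2 and Gbp3 are guanylate-binding proteins. Both kinds attack the compartments of intracellular pathogens. Mx2 is listed in the annotation as a polymorphic pseudogene. Irgm1 (chr11:48861968-48871683, minus strand) was the most abundant and rose most, by 1.40 (SE 0.24, adjusted p = 0.00147). Irgm1 was at 7.67, 8.87, 9.83 and 8.03 FPKM in control Thy1+SSEA1- cells on days 2, 4, 8 and 14 and at 32.2, 8.20, 43.9 and 16.2 FPKM in the Dppa2/4 arm. Among Thy1-SSEA1- libraries 12.1, 6.89, 6.17 and 6.05 FPKM on days 2, 4, 8 and 11 stood against 47.1, 22.6, 34.4 and 33.7 FPKM. In Thy1-SSEA1+ cells 1.08, 1.68 and 3.55 FPKM on days 8, 11 and 14 stood against 10.8, 8.99 and 5.09 FPKM, so the arms were separate in both Thy1- gates. In GFP+ cells Irgm1 was at 0.945 and 0.526 FPKM in the control and at 1.74 and 0.569 FPKM in the Dppa2/4 arm on days 11 and 14. Igtp had the smallest adjusted p of the members, 0.000699, at a difference of 1.31 (SE 0.18), and Igtp, Mx2, Gbp2, Gbp3 and Ifi47 were each higher in 13 of 13 strata. The others of the group rose by 0.73 to 0.87.

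The 4 HIN-200 genes rose, though Ifi203 and Ifi205 entered the test through the Dppa2/4 arm. The family encodes DNA-binding proteins, some of them sensors of cytosolic DNA. The genes lie together on chromosome 1 with near-identical stretches, so their values are uncertain where the counting could split reads. Ifi202b had the largest difference, 0.66 (SE 0.18, adjusted p = 0.0165), and a level that followed the gate. It was at 18.9, 5.07, 2.88 and 2.58 FPKM in control Thy1-SSEA1- cells on days 2, 4, 8 and 11, and at 40.5, 6.91, 4.64 and 17.2 FPKM in the Dppa2/4 arm. In Thy1+SSEA1- cells it was at 0.466, 0.349, 0.265 and 0.198 FPKM in the control on days 2, 4, 8 and 14 and at 0.938, 0.456, 0.853 and 1.11 FPKM in the Dppa2/4 arm. Every Thy1-SSEA1- library therefore stood above every Thy1+SSEA1- library. The share of all genes that separate these gates was not worked out, so this only describes Ifi202b. In GFP+ cells Ifi202b was at most 0.459 FPKM. Ifi203, Ifi204 and Ifi205 rose by 0.47 to 0.62. Without day 8 or without day 14 the call for Ifi202b was lost, at 0.73 and 0.70.

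Parp9, Parp12 and Dtx3l rose and Parp14 did not pass. Parp9 and Dtx3l form a pair that modifies histones and boosts interferon signalling, and Parp12 and Parp14 attach ADP-ribose to proteins. Parp12 had the largest difference and the highest level of the group, with 0.91 (SE 0.18, adjusted p = 0.00366), and was higher in 13 of 13 strata. Parp12 in Thy1-SSEA1+ cells was at 6.11, 5.41 and 8.47 FPKM in the control on days 8, 11 and 14 and at 43.7, 18.5 and 20.1 FPKM in the Dppa2/4 arm, without overlap. In Thy1+SSEA1- cells the arms overlapped, with 15.2, 16.8, 26.9 and 16.2 FPKM in the control on days 2, 4, 8 and 14 and 32.9, 20.9, 55.3 and 21.2 FPKM in the Dppa2/4 arm. In Thy1-SSEA1- cells the controls had 12.3, 21.1, 20.6 and 19.1 FPKM on days 2, 4, 8 and 11, against 22.3, 32.5, 55.9 and 21.7 FPKM, and the day 14 Dppa2/4 library, at 18.8 FPKM, lay within the control range. Parp9 rose by 0.82 (SE 0.12, adjusted p = 0.000934), Dtx3l by 0.66 (SE 0.13, adjusted p = 0.00295), and Parp14 differed by 0.22 (SE 0.09, adjusted p = 0.102).

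The 6 other interferon-induced genes rose, and their median difference of 1.198 was the largest of the 10 roles. Of these, Ifi44 entered the test through the Dppa2/4 arm. Rtp4, a receptor transporter that binds RNA in infected cells, differed by 2.16 (SE 0.35, adjusted p = 0.00123). Rtp4 was at 0.672, 1.30, 0.947 and 1.78 FPKM in control Thy1+SSEA1- cells on days 2, 4, 8 and 14 and at 14.9, 0.583, 27.3 and 15.5 FPKM in the Dppa2/4 arm. For Rtp4 in Thy1-SSEA1- cells 2.19, 0.878, 1.06 and 1.07 FPKM on days 2, 4, 8 and 11 stood against 22.6, 9.89, 21.9 and 16.5 FPKM. For Thy1-SSEA1+ cells 0.0434, 0.606 and 0.409 FPKM on days 8, 11 and 14 stood against 6.19, 4.43 and 3.58 FPKM, so in both of these gates the Rtp4 values of the arms did not overlap. In GFP+ cells Rtp4 was below 1 FPKM in all libraries. Ifi27l1, a mitochondrial protein and the most abundant of the group, rose by 0.97 (SE 0.16, adjusted p = 0.00133). It ran from 2.16 FPKM in control GFP+ cells on day 14 to 217 FPKM in control Thy1+SSEA1- cells on day 14, and from 5.06 to 408 FPKM in the Dppa2/4 libraries of the strata. Lgals3bp, a secreted glycoprotein, rose by 1.36, Ifi44 by 1.44, Xaf1, a pro-apoptotic protein, by 1.03 and Ifi35 by 0.49. Xaf1 and Oas3 were the calls lost most often when a stratum was left out.

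**Figure D2:**
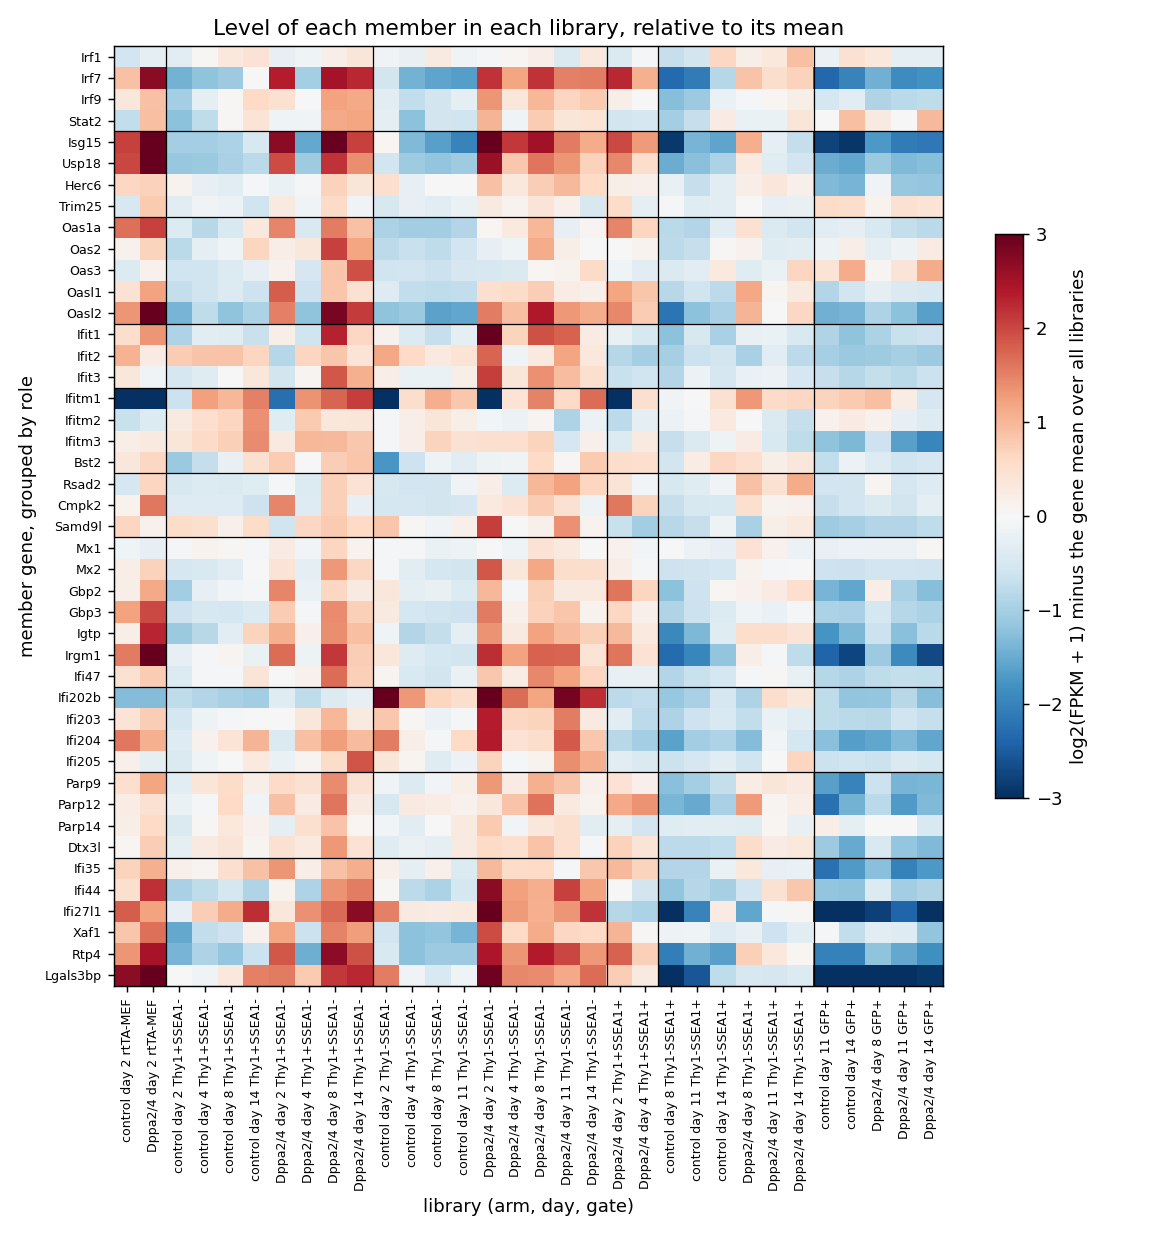
Level of each of the 44 members (rows, grouped by role) in each of the 32 libraries (columns, the rtTA-MEF pair first, then by gate, arm and day) as log2(FPKM + 1) minus the gene's mean over all libraries. For Irf7, Isg15, Oasl2 and Rtp4 the Dppa2/4 libraries of Thy1+SSEA1- and Thy1-SSEA1- cells are red except day 4 Thy1+SSEA1-, and the GFP+ columns at the right are mostly blue in both arms.

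Within single gates the difference ran from large to near 0. In Thy1-SSEA1- cells the median over 43 members was 1.08, 15 rose and 0 fell (0.933% of all genes rose and 0.255% fell). Isg15 differed there by 3.69 (SE 0.65, adjusted p = 0.033), Irf7 by 3.06, Rtp4 by 2.995 and Oasl2 by 2.91, and Ifit1 by 2.20. In Thy1+SSEA1- cells the median was 0.83 and 10 rose (2.9% of genes rose and 0.867% fell), among them Irf7 at 2.45, Oasl2 at 2.39 and Usp18 at 2.12. Without the day 4 stratum of that gate 20 members rose there (6.85% of genes rose and 3.01% fell), Isg15 differed by 3.40 (SE 0.50, adjusted p = 0.00271), and in Thy1-SSEA1- cells 25 rose (4.17% of genes rose and 1.16% fell). In Thy1-SSEA1+ cells the median was 0.64 and 13 rose (9.25% of genes rose and 5.52% fell), among them Parp12 at 1.80, Lgals3bp at 1.93, Igtp at 1.69 and Irf1 at 0.67. Pluripotency markers moved there too: 5 of 7 fell with Dppa2/4, with a median of -1.41, and 0 of 8 fibroblast markers passed, and their part in the members' difference was not tested. In GFP+ cells the median was 0.10 and 0 members passed in limma (0.0178% of genes rose and 0% fell). At an unadjusted p under 0.05 were 1 of 43 members and 1246 of 16835 genes. The counts within a gate rest on 2 to 4 strata: leaving out 1 stratum moved them between 0 and 20 in Thy1+SSEA1-, 0 and 25 in Thy1-SSEA1-, and 3 and 18 in Thy1-SSEA1+ cells.

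**Figure D3:**
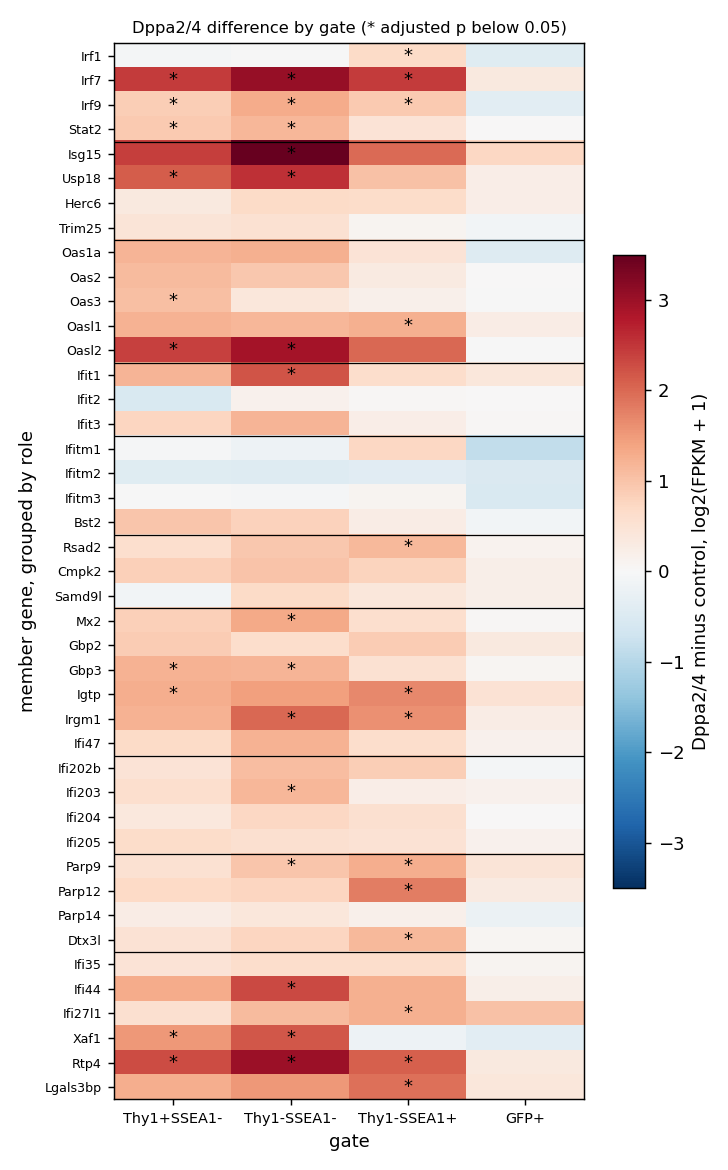
Dppa2/4 minus control on log2(FPKM + 1) for the 43 members tested (rows, by role) in the 4 gates with both arms (columns); an asterisk marks an adjusted p below 0.05. The strongest reds are Isg15, Irf7, Rtp4 and Oasl2 in the first 3 gates, and the GFP+ column holds no asterisk.

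Whether the difference itself changed with the gate was tested. Between GFP+ and Thy1-SSEA1+ cells all 43 members had a smaller Dppa2/4 difference in GFP+, with a median change of -0.55 (-0.02 over all genes). The share of all genes with a smaller difference was not worked out, and some members met the filter through the Dppa2/4 arm alone. Many members were also under 1 FPKM in GFP+ cells, where values move little on this scale, so that count only describes them. At an unadjusted p under 0.05 were 9 members and 1261 of 16835 genes, but 0 members passed after adjustment (0.00594% of genes passed in each direction). Across the 4 gates together 14 of 43 members were at an unadjusted p under 0.05, as were 1960 of 16835 genes. After adjustment 0 members passed (0.22% of genes passed). The contrast is thus not established gene by gene at this number of libraries. Xaf1 came nearest: it differed by 1.51 in Thy1+SSEA1-, 2.17 in Thy1-SSEA1-, -0.17 in Thy1-SSEA1+ and -0.38 in GFP+ cells, and the change from Thy1-SSEA1- to Thy1-SSEA1+ was -2.34 (SE 0.49, adjusted p = 0.0741). Without the day 4 Thy1+SSEA1- stratum that change passed (adjusted p = 0.0197), and Xaf1 and Rtp4 passed the test across gates (adjusted p = 0.0234 and 0.0473). Xaf1 was at 11.6, 6.90, 7.15 and 6.12 FPKM in control Thy1-SSEA1- libraries of days 2, 4, 8 and 11, where the Dppa2/4 arm had 71.3, 27.0, 39.3 and 27.9 FPKM. In Thy1-SSEA1+ cells of days 8, 11 and 14 Xaf1 was at 15.8, 16.0 and 13.2 FPKM in the control and 15.0, 11.1 and 13.6 FPKM in the Dppa2/4 arm. The arms were far apart in the first gate and overlapped in the second.

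The mean of log2(FPKM + 1) over the 44 members gives the order of the libraries. In the control it was 2.15 to 2.86 in 4 Thy1+SSEA1-, 2.31 to 2.65 in 4 Thy1-SSEA1-, 1.57 to 2.27 in 3 Thy1-SSEA1+ and 1.65 to 1.70 in 2 GFP+ libraries. In the Dppa2/4 arm it was 2.63 to 4.00 in Thy1+SSEA1-, 3.15 to 3.93 in 5 Thy1-SSEA1-, 2.74 and 2.99 in 2 Thy1+SSEA1+, 2.69 to 2.77 in Thy1-SSEA1+ and 1.74 to 2.03 in 3 GFP+ libraries. The lowest Thy1+SSEA1- value of that arm, 2.63, was the day 4 library, near its control at 2.45. The arms did not overlap in the Thy1-SSEA1-, Thy1-SSEA1+ or GFP+ gates, but in GFP+ the gap was 0.117 on day 11 and 0.043 on day 14, against 0.448 to 1.41 in the other strata apart from day 4 Thy1+SSEA1- (0.181). Among the controls the Thy1+SSEA1- and Thy1-SSEA1- ranges overlapped, as did those of Thy1-SSEA1+ and GFP+ cells, while all Thy1-SSEA1- controls (lowest 2.305) stood above all Thy1-SSEA1+ controls (highest 2.268).

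**Figure D4:**
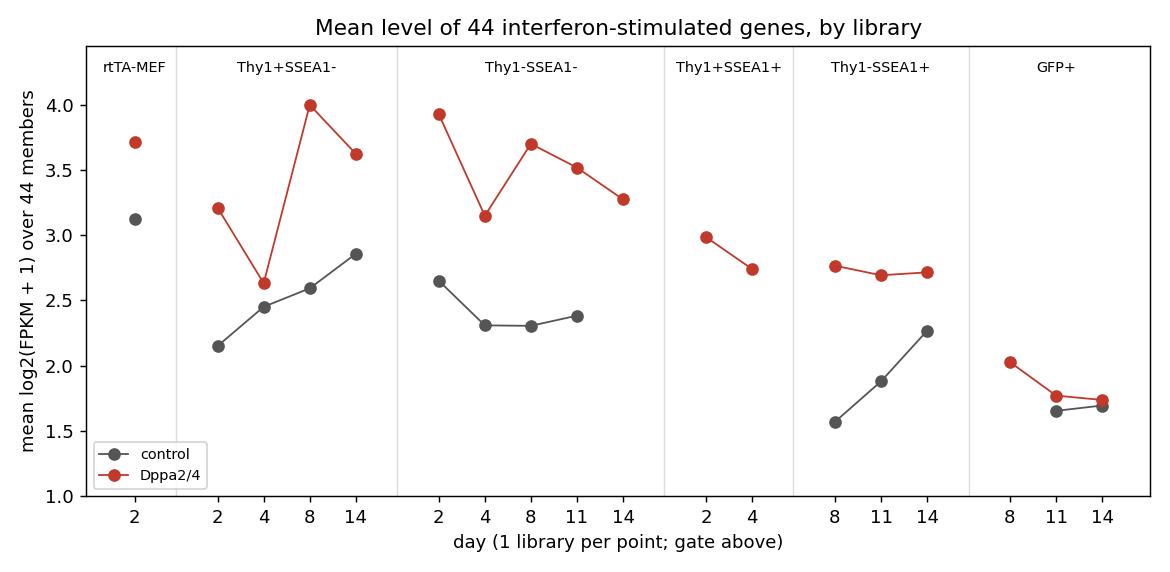
Mean log2(FPKM + 1) over the 44 members in each library by gate and day, control in grey and Dppa2/4 in red, 1 library per point, joined within an arm. The red points lie 0.448 to 1.41 above the grey ones in most strata, but 0.181 above on day 4 in Thy1+SSEA1- and 0.117 and 0.043 above in GFP+.

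Member by member, all Dppa2/4 libraries stood above all control libraries of the gate for 2 members in Thy1+SSEA1- (2% of genes tested there), or 24 without the day 4 library (9.04%), for 20 in Thy1-SSEA1- (5.23%), 23 in Thy1-SSEA1+ (13%) and 18 in GFP+ (12.8%). In GFP+ cells the reverse, all Dppa2/4 libraries below all controls, held for 3 members, Irf9, Trim25 and Oas1a, where 9.15% of genes lay that way, and for 0 members in the other gates. Every member was counted here, while the percentages cover only genes with at least 1 FPKM in at least 2 libraries of the gate. Oas1a, at most 0.971 FPKM in GFP+ cells, did not meet that filter there, so counts and percentages cannot be compared directly. The GFP+ comparison sets 2 control against 3 Dppa2/4 libraries, with most members at low levels.

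The gates also differed from each other with arm and day held fixed, and levels were lower in the later gates. From Thy1-SSEA1- to Thy1-SSEA1+ 15 of 43 members fell and 0 rose (12.4% of genes fell and 9.55% rose), with a median of -0.68. Lgals3bp fell by 2.30 on the log2 scale (SE 0.26), Ifi27l1 by 2.44 (SE 0.32), Ifi202b by 1.93 (SE 0.17) and Irgm1 by 1.55 (SE 0.15). From Thy1-SSEA1+ to GFP+ 20 of 33 tested fell and 3 rose (25.9% of genes fell and 19.5% rose), with a median of -0.79. The filter of 1 FPKM in 2 libraries ran over both gates of a step, so a member could enter through the gate where it was high. Rtp4, below that level in every GFP+ library, entered through Thy1-SSEA1+ cells. How many members did so was not counted, and nothing is read from the fall of such members. Ifi35 had the smallest adjusted p, 0.000769, at -1.54 (SE 0.10), Bst2 fell by 0.86 and Isg15 by 1.76. The 3 that rose were Trim25 (0.64), Oas3 (0.61) and Stat2 (0.52). Without the Dppa2/4 day 8 block the first step had 8 members that fell. Markers of cell identity moved in the same steps: 8 of 8 fibroblast markers fell in both, with medians of -2.59 and -1.75, and 7 of 7 pluripotency markers rose, with medians of 2.16 and 2.19. Their part in the members' fall was not tested. In bulk RNA fewer cells of a kind and less RNA per cell cannot be told apart.

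By arm, the step to GFP+ had 4 members that fell and 1 that rose in the control (5.9% and 3.37% of genes) and 21 that fell and 1 that rose in the Dppa2/4 arm (21.9% and 17.1%). The step differed between arms for 0 members in limma (0.013% of genes were higher and 0.00652% lower). At an unadjusted p under 0.05 were 7 of 33 members and 1454 of 15347 genes. Irf7 dropped by 2.40 in the Dppa2/4 arm (SE 0.21) and differed by -0.69 in the control (SE 0.26), and the difference between these was -1.71 (SE 0.33, adjusted p = 0.364). Irf7 met the filter of this fit through Thy1-SSEA1+ cells, so nothing is read from its drop. The control arm had 2 days with both gates and the Dppa2/4 arm 3, and in simulated data the control arm's fit called 0% of genes shifted by 1 log2 unit, so the counts of the arms are not comparable.

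Between the first 2 gates no member passed. From Thy1+SSEA1- to Thy1-SSEA1- 0 of 43 rose and 0 fell (0.0129% of genes in each direction). At an unadjusted p under 0.05 were 6 of the 43 and 1611 of 15473 genes. Ifi202b, whose separation by gate is given above, was nearest, at 2.64 (SE 0.36, adjusted p = 0.0833), and passed with a pseudocount of 0.1 FPKM (3.72, adjusted p = 0.0233) and without day 2 (2.06, adjusted p = 0.0209). It met the filter of this fit through Thy1-SSEA1- cells, where it is high, so nothing is read from these calls.

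Time within a gate moved few members. In Thy1+SSEA1- cells Ifi27l1 rose by 0.18 a day (SE 0.02, adjusted p = 0.049) and Stat2 by 0.13 a day (SE 0.03, adjusted p = 0.0496), and 0 of 42 fell (1.3% of genes rose and 0.8% fell). Without the library labelled Dppa2/4 day 4, 7 rose (11.5%), and without day 2, or without any 1 of the other 7 libraries, 0 rose. In Thy1-SSEA1- cells Isg15 fell by 0.18 a day (SE 0.04, adjusted p = 0.0363), 0 of 42 rose (1.09% of genes fell and 1.68% rose), and the Isg15 call was lost without day 2. Isg15 there ran from 8.37 to 1.26 FPKM between days 2 and 11 in the control and from 113 to 18.7 FPKM between days 2 and 14 in the Dppa2/4 arm.

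The day 2 libraries labelled rtTA-MEF gave the same direction for the largest members in 1 pair, with no test. Their genotype names no OSKM cassette, while their description names OSKM-rtTA cells on day 1, and Pou5f1 was at 122 FPKM in the control and 1116 FPKM in the Dppa2/4 library, so whether they lacked OSKM cannot be told. Dppa2 was at 1.53 and 4443 FPKM. Folds were counted on FPKM + 1, which shrinks those of low genes. Of 40 members at 1 FPKM or more in either library 12 were at least 2-fold higher with Dppa2/4 and 0 at least 2-fold lower. Among all genes 20.6% were higher and 4.38% lower, and the median log2 difference was 0.55 for members and 0.28 for all genes. Ifit2, at 4.20 FPKM in the control and 1.96 FPKM with Dppa2/4, did not reach 2-fold on that scale. Irf7 was at 11.1 and 42.2 FPKM, Oasl2 at 11.98 and 45.1 FPKM, Isg15 at 36.7 and 95.2 FPKM and Usp18 at 10.7 and 33.3 FPKM. Other members that rose over the strata were lower with Dppa2/4 in this pair. They were Ifi27l1 (164.3 and 107.4 FPKM), Ifi204 (9.33 and 6.28 FPKM), Ifit3 (1.365 and 0.737 FPKM) and Ifi205 (0.726 and 0.284 FPKM). The control library of this pair already had a member mean of 3.12, above the 2.15 to 2.86 of the sorted control libraries of Thy1+SSEA1- cells.

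Upstream of the members, the interferon genes themselves were at or near 0. None of 12 type I, type II and related interferon genes passed the filter of 1 FPKM in 2 libraries, and their summed level was at most 0.182 FPKM in the sorted libraries. Ifnb1, the interferon beta of fibroblasts, was listed at 0 in most libraries and reached 0.101 FPKM. Of 16 receptor and signalling genes 6 rose and 0 fell, among them Irf5 by 0.71 (SE 0.15, adjusted p = 0.00463), Jak2 by 0.56, Irf8 by 0.43, Ifngr2 by 0.42 and Pias1 by 0.32. The receptor chains of type I interferon did not pass, with Ifnar1 at 0.01 and Ifnar2 at 0.22. Ifnar1 had 19.8 ± 6.70 FPKM in the control and 19.6 ± 5.80 FPKM in the Dppa2/4 arm (SD over strata, n = 13 each).

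Of 14 sensors and adaptors tested 4 rose and 1 fell. Eif2ak2, the kinase PKR that senses double-stranded RNA, rose by 0.85 (SE 0.12, adjusted p = 0.000797), Ifih1, the RNA sensor MDA5, by 0.83 (SE 0.13, adjusted p = 0.000973) and Dhx58, its regulator LGP2, by 0.42. Mavs, the adaptor of Ifih1, fell by 0.33 on the log2 scale (SE 0.10, adjusted p = 0.0315). The fourth gene that rose was Adar, the RNA editor, by 0.35.

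Beyond the 44 members, 15 of 37 further interferon-stimulated genes tested rose and 1 fell, with a median of 0.24. Ifi27l2a rose by 1.34 (SE 0.29, adjusted p = 0.00538), Isg20, an RNA exonuclease, by 1.01 (SE 0.17, adjusted p = 0.00139), and Slfn5 fell by 0.52 (SE 0.12, adjusted p = 0.00817). The share that rose in that list, 15 of 37, was below the 36 of 43 of the members, and the lists were not compared by a test. Of 7 inflammatory cytokines tested Cxcl10 rose by 0.74 and Ccl7 by 0.72.

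Markers of immune cells were checked beside these results. Of 15 markers 5 were tested and 2 rose, Cd68 by 0.54 (SE 0.18, adjusted p = 0.039) and Cd14 by 0.50 (SE 0.11, adjusted p = 0.00758). The summed level of the 15 was 6.47 to 121 FPKM in the control and 9.72 to 87.3 FPKM in the Dppa2/4 libraries. Ptprc, the pan-leukocyte antigen CD45, was at most 0.155 FPKM in the sorted libraries. Cd68 was highest on day 14 in Thy1-SSEA1+ and GFP+ cells, at 70.6 and 54.1 FPKM in the control and 82.6 and 58.8 FPKM in the Dppa2/4 arm, and the part of such cells in the results was not tested. Of 8 fibroblast markers 3 fell in the Dppa2/4 arm, Lum by 1.15, Col1a1 by 0.79 and Pdgfra by 0.69 on the log2 scale. Of 7 pluripotency markers Pou5f1 fell over the strata, by 0.72, and its reads also come from the cassette. Within Thy1-SSEA1+ cells 5 of the 7 fell, as given above.

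Among libraries of the Dppa2/4 arm a higher level of Dppa2 did not always go with a higher member mean, and no relation between them was tested. The library with the highest member mean, 4.00 in day 8 Thy1+SSEA1- cells, had Dppa2 at 175 FPKM, and the day 2 Thy1+SSEA1- library with Dppa2 at 599 FPKM had a member mean of 3.21. The lowest mean of that gate and arm, 2.63, was in the day 4 library, where Dppa2 was at the control level. Thy1-SSEA1- cells on day 2 had Dppa2 at 81.8 FPKM and a mean of 3.93. Control GFP+ cells on day 11 had Dppa2 at 66.1 FPKM and a mean of 1.65, near the lowest of the series, while Dppa2/4 Thy1-SSEA1+ cells on day 11 had Dppa2 at 43.2 FPKM and a mean of 2.69. Control GFP+ cells thus combined Dppa2 levels within the range of the overexpressing Thy1-SSEA1+ cells with member means among the lowest. The libraries set side by side here also differ in gate or day, which cannot be told apart from the level of Dppa2.

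**Figure D5:**
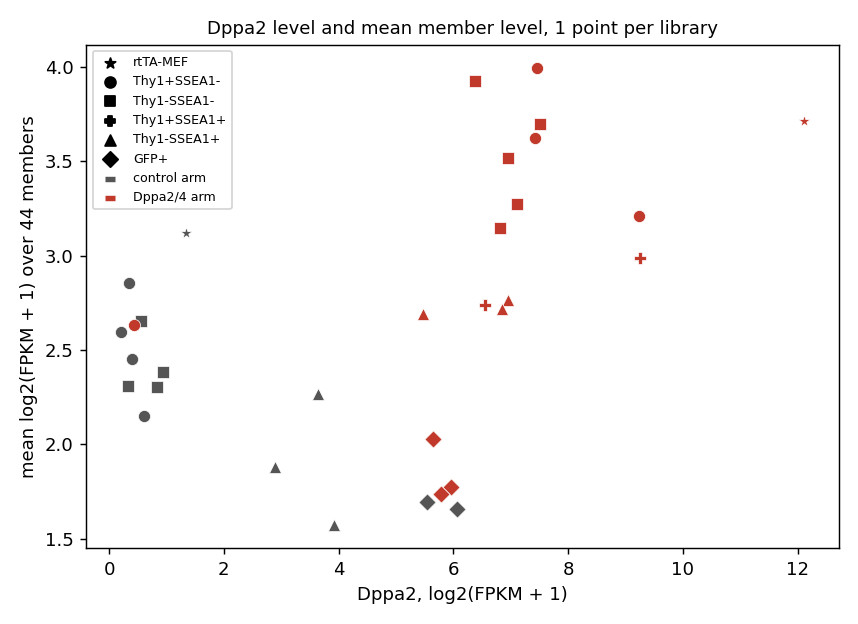
Dppa2 as log2(FPKM + 1) against the mean log2(FPKM + 1) over the 44 members, 1 point per library, colour for the arm and shape for the gate; stars are the rtTA-MEF pair. The red circle among the grey points at the left is the library labelled Dppa2/4 day 4 Thy1+SSEA1-, and the diamonds of GFP+ cells, grey and red, lie together at the bottom, with member means of 1.65 to 2.03.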

How the data were processed

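The authors deposited FPKM per gene from sorted mouse embryonic fibroblasts. Per the submitters' processing notes, the build was mm10 and the tools TopHat2 and Cuffdiff; versions, annotation and strand are not given in the sources used here. Of 33 value columns 32 were used: 1 matched no sample, and the control day 11 Thy1+SSEA1- sample is not analysed here. The 2 columns naming an arm and day 2 without a gate were taken as the samples titled rtTA-MEF.

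Values were analysed as log2(FPKM + 1). Genes with at least 1 FPKM in at least 2 libraries were tested with limma 3.58.1 (eBayes with a trend, R 4.3.3), two-sided, Benjamini-Hochberg adjusted over all genes tested, threshold 0.05. Dppa2/4 was compared with control with day and gate as a block (replicate numbers are all 1; libraries of a stratum deviated together, with correlations of 0.209 to 0.757), neighbouring gates within blocks of the same arm and day, and days with arm as a term. On simulated data for Dppa2/4 against control, 89% of 200 genes shifted by 1 log2 unit were called, with 15 false calls among 16835 genes. The share called was 61% in Thy1+SSEA1- cells, 60.5% between Thy1+SSEA1- and Thy1-SSEA1-, 31.5% in the step from there to Thy1-SSEA1+, 65.5% in the next, to GFP+, and 0% in that last step within the control arm, and 56.5% and 50.5% for shifts of 0.15 a day in Thy1+SSEA1- and Thy1-SSEA1- cells. Coordinates are GENCODE vM21 (GRCm38), joined by Ensembl identifier, and promoters are RefSeq's. Depth was worked back from the lowest FPKM times length, read as 1 fragment.

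Within each of 10 roles the member with the largest difference and the one with the highest mean FPKM are given in detail, others by count and range; of the other lists up to 3 genes, and Ifnar1, Ifnar2, Ifnb1, Dppa2 and Dppa4 whatever their result. Xaf1, Ifitm2 and members named because a count was small were picked after their values were seen. The members, lists and alternatives were chosen with earlier results of these data known. Other settings tried were quantile normalization, a pseudocount of 0.1, a filter on mean FPKM (5 or more) or none, fits with no block or no trend, and fits that leave out days, strata or libraries; those without day 2 for gates and days, without the library labelled Dppa2/4 day 4 for days and gates, and those for GFP+ by arm were chosen after seeing the data. One gene of the signalling list is not reported here.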

Additional observations from a re-analysis of the deposited data

Results flagged for a closer look

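In 44 checks of a library against the others of its arm and gate, over the member mean and the member with the largest difference of each role, 4 stood apart. By chance about 1 in 20 is flagged. The checks covered Thy1+SSEA1- and Thy1-SSEA1- cells, and the other gates had too few libraries per arm to be checked. In Dppa2/4 Thy1+SSEA1- cells the day 4 library was below the other 3 for Irf7, at 1.71 on log2(FPKM + 1) against 4.995 to 5.23, and for Bst2, at 6.93 against 7.67 to 7.74. Dppa2 in that library was at 0.354 FPKM. In control Thy1+SSEA1- cells the day 14 library was above the other 3 for Isg15, at 2.69 against 2.15 to 2.23, and below them for Cmpk2, at 0.156 against 0.375 to 0.382.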

How the results depend on the processing

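Leaving out any 1 of the 13 strata gave 33 to 36 members higher and 1 lower with Dppa2/4, and the fit without the trend gave 36 and 1. The replicate block (day and gate) carried many of the calls: without it 15 members were higher and 0 lower (4.27% and 0.511% of all genes). Quantile normalization gave 31 higher and 1 lower (12% and 11.9% of genes), moved the share of higher calls among all genes' calls from 66.8% to 50.3%, and lost Herc6, Ifi204, Ifi205, Ifit3 and Oas3. With a mean of at least 5 FPKM 15 of 19 members tested were higher (12.2% of genes). Without day 2, 31 were higher (14.2% of genes), and without day 11 or without day 14, 33 were higher and 0 lower (9.44% and 11.2% of genes higher, 3.31% and 2.98% lower). Of the members that did not pass, Ifitm3 changed sign to 0.035 with quantile normalization, 0.052 without day 11 and 0.092 without day 14, and ran from -0.153 to 0.005 when strata were left out; Ifit2 ran from -0.175 to 0.024 and Irf1 from -0.008 to 0.128. The cause was not tested, here or below. The counts here and below include members that met the filter through 1 arm or 1 gate alone, and nothing is read from their calls.

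The counts within gates moved most, and percentages in parentheses are shares of all genes tested in the same direction. Members higher in Thy1+SSEA1- cells were 1 without a filter (0.0779%), 2 of 19 at a mean of 5 FPKM (0.494%), 6 with quantile normalization (2.08%) and 20 without the day 4 stratum (6.85%), and 0 to 20 over left-out strata. For Thy1-SSEA1- cells they were 1 without a filter (0.0531%), 8 of 19 at a mean of 5 FPKM (0.649%) and 25 without that stratum (4.17%), and 0 to 25. For Thy1-SSEA1+ cells a pseudocount of 0.1 gave 20 (10.1%), and left-out strata gave 3 to 18. Without the day 4 Thy1+SSEA1- stratum 1 member passed for Thy1-SSEA1+ minus Thy1-SSEA1- and 2 across gates (0 to 1 and 0 to 2 over left-out strata). Between the Thy1+SSEA1- and Thy1-SSEA1- gates 1 was higher with the pseudocount of 0.1 (0.11%) and 1 without day 2 (0.24%), and 0 passed without the Dppa2/4 day 4 block (0% higher, 0.00652% lower). From Thy1-SSEA1- to Thy1-SSEA1+ 8 of 19 were lower at a mean of 5 FPKM (12.4%) and 8 to 15 over left-out blocks. From there to GFP+ 6 of 13 were lower at that filter (23.9%), and 14 to 21 over left-out blocks. By arm, the step to GFP+ had 0 higher in either arm without a filter and 2 in each with quantile normalization. Control members lower were 0 without a filter (0.056%), and Dppa2/4 members lower were 8 of 13 at a mean of 5 FPKM (20.4%); left-out blocks gave 0 to 1 higher in each arm, 0 to 4 lower in the control and 11 to 23 in the Dppa2/4 arm. Members rising per day in Thy1+SSEA1- cells were 0 without a filter (0%), 1 with quantile normalization (0.638%), 0 without day 2 (0%) and 7 without the library labelled Dppa2/4 day 4 (11.5%; 0 to 7 over left-out libraries). In Thy1-SSEA1- cells members falling per day were 0 without a filter (0.225%) or without day 2 (0%), and 0 to 1 over left-out libraries.

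Low levels limit the rest: 16 to 23 of the 44 members were at 1 FPKM or more in the GFP+ libraries, and values below that move little on this scale whatever their ratio.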
